A study of Mus musculus with 10 samples.

Results

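The 7 mouse genes described here are Lin28a, Lin28b, Hmga1, Hmga2, Igf2bp1, Igf2bp2 and Igf2bp3, taken by their symbols from the 50559 genes counted in 10 RNA sequencing libraries. They are often called oncofetal genes, since they are active in embryonic tissue, fall silent or become scarce in most adult tissue and return in many tumors. LIN28 proteins bind the precursors of the let-7 microRNAs and block their maturation. Mature let-7 in turn represses mRNAs of the LIN28, HMGA and IGF2BP families through sites in their 3′ UTRs. HMGA proteins are small chromatin proteins that bend AT-rich DNA, and IGF2BP proteins bind and stabilize mRNAs, that of Myc among them. In the developing brain these genes are known from neural stem and progenitor cells, where let-7 rises as cells mature.

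RNA came from formalin-fixed, paraffin-embedded (FFPE) tissue of 4 MYC/SMARCA4 tumors, 3 SHH medulloblastomas (SHH MB) and 3 P7 cerebella. The tumors grew in the cerebellum of CD1nu/nu hosts, which lack T cells, after transplantation of granule cell precursors (GCPs) from Math1-creERT2::Smarca4fl/fl pups. In these pups tamoxifen given at P3 deletes Smarca4 in a part of the GCPs, and a lentiviral construct then added murine Myc with GFP. The GCPs were not sorted before transplantation, so that the injected cells included some without the deletion or the construct. In the resulting tumors the paper found no tumor cells that kept SMARCA4 protein. It reports high GFP throughout, and MYC protein that varied within and between tumors. A punch of tumor also holds cells of the host. The hosts of tumors 1 to 4 are labelled as 112, 96, 89 and 79 days old. The P7 cerebella are whole cerebella of 7-day-old Math1-creERT2::Smarca4fl/fl mice treated at P3 with 0.4 mg of tamoxifen. They therefore carry the same deletion in a part of the cells of the Math1 lineage, while other cerebellar cells keep Smarca4. The paper found SMARCA4 lost in only a part of the GCPs isolated after this treatment. The SHH MB come from Math1-cre::Smofl/wt mice, labelled as 7 days old, in which SHH signaling is switched on in the Math1 lineage. Age, host strain and transplantation differ between the MYC/SMARCA4 tumors and both other groups and cannot be told apart from the tumor itself. The labels of the P7 cerebella and SHH MB number the libraries without saying whether each came from a separate animal. The p-values therefore measure a spread between libraries. This spread was estimated for each gene over all 10 libraries together. P-values and SEs for SHH MB against P7 cerebella therefore also carry the spread of the tumors.

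Between 5663491 and 9352109 reads were counted per library, and a floor of 3 counts corresponds to 0.307 to 0.744 CPM, the count scaled to the normalized size of its library. Such floors cover counting error only. Myc reached 152, 368, 1587 and 1016 CPM in tumors 1 to 4, 13.0 to 14.3 CPM in P7 cerebella and 33.7 to 45.7 CPM in SHH MB. Construct and endogenous gene are counted together. Smarca4 reached 136 to 244 CPM in the tumors, 221 to 282 CPM in P7 cerebella and 491 to 590 CPM in SHH MB. It was lower in the tumors than in SHH MB by 1.39 ± 0.28 on the log2 scale (SE, adjusted p = 0.0157), and its difference from P7 cerebella was -0.30 ± 0.28 (adjusted p = 0.495). Reads were counted over the whole gene, and a punch also holds host cells, so that these values do not measure the deletion. The paper showed the loss of SMARCA4 by protein staining and the recombined gene by PCR. The library of tumor 1 stood apart. The summed level of 20 proliferation genes was 247 CPM there, against 2718 to 3036 CPM in the other tumors, 1135 to 1547 CPM in P7 cerebella and 3026 to 3508 CPM in SHH MB. Its 10 markers of mature granule neurons summed to 8370 CPM, against 622 to 2983 CPM in the other 9 libraries. Tumor 3 had the lowest sum of the neuron markers. For the 7 genes, values without 1 of these libraries are given where leaving it out changed a call.

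Because let-7 connects the 7 genes, its sequence and its matches are shown before the levels. The 9 mature let-7 family members listed by RefSeq for the mouse, miR-98 included, share the same seed (bases 2 to 8), which is in capitals in these 3 examples.
mmu-let-7a-5p: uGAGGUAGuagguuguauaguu
mmu-let-7g-5p: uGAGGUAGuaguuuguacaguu
mmu-miR-98-5p: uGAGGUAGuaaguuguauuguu
The letters CTACCTC pair with this seed. They were searched on the transcript strand of the 3′ UTR, in GENCODE vM39 on GRCm39, of the manually annotated coding transcript with the longest 3′ UTR of each gene. All 7 genes held at least 1 match, 17 in all, whereas 10.3% of the 21513 genes with an annotated 3′ UTR did. Among genes with a 3′ UTR of at least 2000 bases, the share was 20.7%. Lin28b, Hmga2 and Igf2bp1 held 4 matches each, a number that 13 of all genes (0.0604%) reached. Lin28a held 2 matches, and Hmga1, Igf2bp2 and Igf2bp3 held 1 each. The genes are known as let-7 targets, which is one reason why they are grouped, so that these counts describe the group and support nothing further. The matches of Igf2bp1, the member with the longest 3′ UTR (6340 bases), lay on the minus strand of chromosome 11 and are printed with 10 bases before and 6 after the capitals.
Igf2bp1, chr11:95852599-95852621: gcgaagtaaaCTACCTCaaggtg
Igf2bp1, chr11:95850178-95850200: gtgctattaaCTACCTCagcccc
Igf2bp1, chr11:95849584-95849606: aatggatgaaCTACCTCagtcct
Igf2bp1, chr11:95848961-95848983: tggttttaatCTACCTCttagca
In 3 of these 4 the match is followed by an A, the base that faces position 1 of the microRNA in well-bound sites. In Lin28b and Hmga2 this held for 1 of 4 matches, in each case the one nearest to the coding sequence, 39 and 61 bases into the 3′ UTR on the minus strand of chromosome 10. The single match of Hmga1, on the plus strand of chromosome 17, is followed by T.
Lin28b, chr10:45257113-45257135: ggcgggaagtCTACCTCatgcaa
Hmga2, chr10:120200124-120200146: cattcaatttCTACCTCagcatc
Hmga1, chr17:27782256-27782278: tgttcacaaaCTACCTCtggacg
In all, 9 of the 17 matches were followed by A. A match is a run of letters and no measured site, and let-7 itself was not measured in these libraries.

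**Figure D1:**
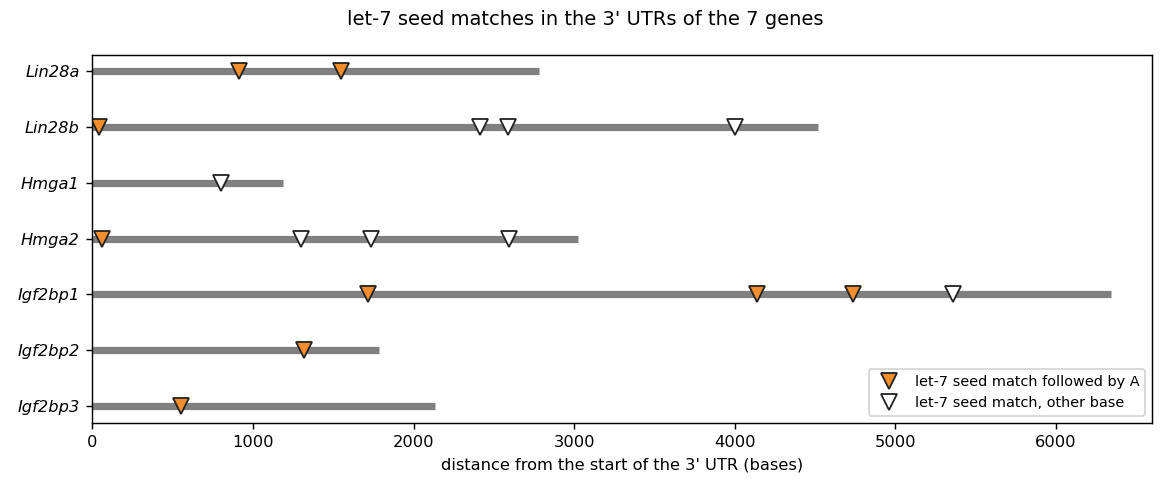
Positions of the 17 CTACCTC matches (triangles) along the 3′ UTRs (grey bars, in bases from their start) of the 7 genes, filled where the match is followed by A. Lin28b, Hmga2 and Igf2bp1 carry 4 matches each, and Igf2bp1 has the longest 3′ UTR with 6340 bases.

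LIN28 proteins recognize the let-7 precursors, in part by the letters GGAG in the loop. Of 11 mouse let-7 hairpins with both arms listed (RefSeq, GRCm38.p6), 8 held GGAG between the mature arms, against 44 of 633 other hairpins (6.95%). Mirlet7b, Mirlet7c-2 and Mir98 did not. A loop with these letters, in capitals, and a loop without them are shown.
Mirlet7g loop: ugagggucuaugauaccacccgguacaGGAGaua
Mirlet7b loop: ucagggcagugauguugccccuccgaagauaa
The hairpin of Mirlet7g lies on the plus strand at chr9:106178840-106178927 and that of Mirlet7b on the plus strand at chr15:85707319-85707403.

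All 7 genes passed the filter on low counts. In the tumors, Igf2bp1 and Hmga1 rose against P7 cerebella, and none of the 7 fell. Of the 29952 genes tested, 3.99% rose and 2.27% fell (6.25% in all) by the same test, edgeR's quasi-likelihood test with an adjusted p of at most 0.05. With 2 of 7 genes higher, the share was above this background, and it rests on few genes. The members were chosen with earlier results of these data known, so that this share is a description only. Lin28b, Hmga1, Hmga2, Igf2bp1 and Igf2bp3 were below an unadjusted p of 0.05 in edgeR, as were 25.2% of all genes. In DESeq2 4 members passed, against 14.8% of all genes, and in limma 0. Against SHH MB, 0 of 7 passed in edgeR, where 2.43% of all genes were higher and 2.26% lower (4.68% in all). Lin28b, Hmga1 and Hmga2 were below an unadjusted p of 0.05 there, as were 19.8% of all genes. In DESeq2 3 members passed, against 12% of all genes, and in limma 0. Between SHH MB and P7 cerebella 0 of 7 passed in edgeR, against 0.177% of all genes higher and 0.0467% lower (0.224% in all). There 1 member, Igf2bp1, was below an unadjusted p of 0.05, as were 8.8% of all genes. In DESeq2 1 member passed, against 2.55% of all genes, and in limma 0. The edgeR fit of all 10 libraries shares its spread between the groups, so that its p-values here also carry the spread of the tumors. In an edgeR fit of only SHH MB and P7 cerebella 2 members passed, against 23.7% of all genes. No member met the stricter call of a log2 fold change of at least 2.5 with an adjusted p of at most 0.01, which 0.0901% of all genes met upwards and 0.2% downwards in the tumors against P7 cerebella, 0.124% and 0.477% against SHH MB, and 0.01% and 0% in SHH MB against P7 cerebella. All 3 comparisons share samples and are not independent.

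**Figure D2:**
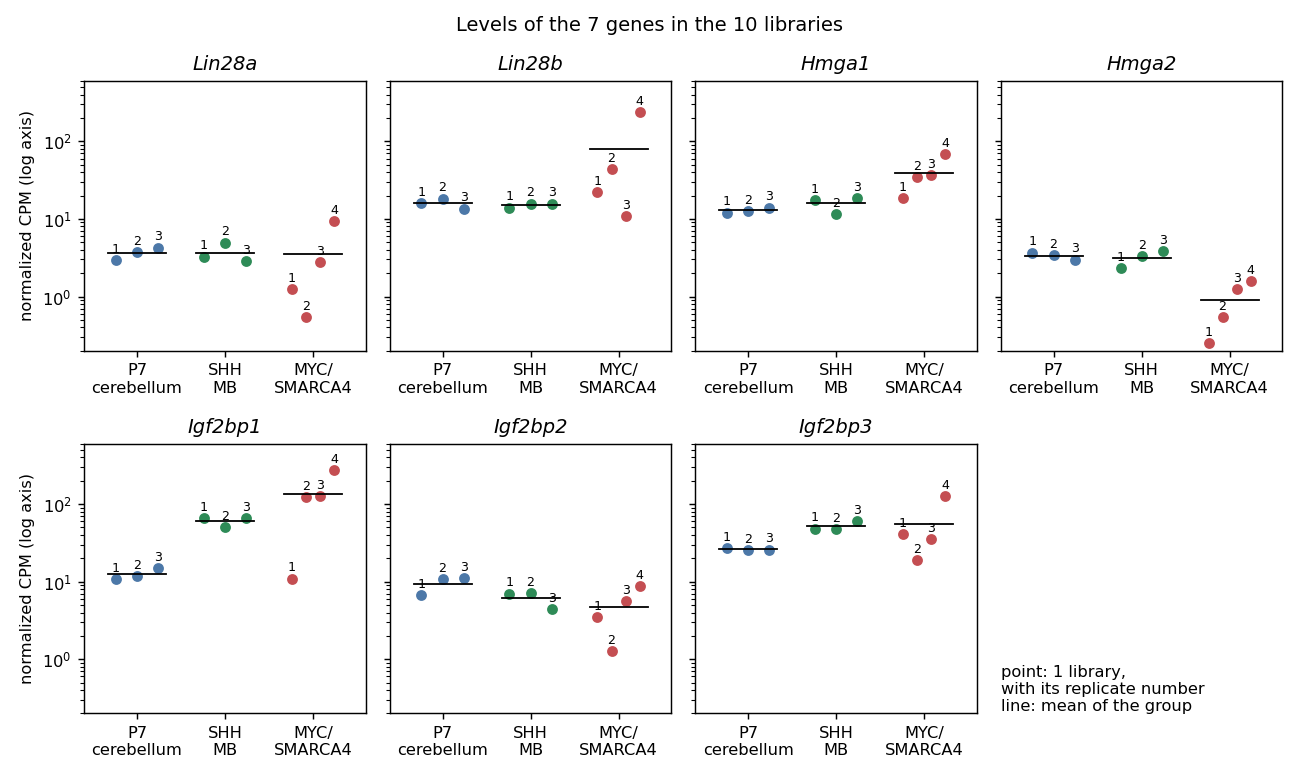
Levels of the 7 genes in normalized CPM (log axis) in each of 3 P7 cerebella, 3 SHH MB and 4 MYC/SMARCA4 tumors. Each point is 1 library with its replicate number and each line is the mean of a group. Tumor 4 is the highest tumor for all 7 genes, while the share of all genes highest there was not counted. Tumor 1 lies with the P7 cerebella for Igf2bp1.

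Igf2bp1 (chromosome 11, 95847989 to 95896911, minus strand, 15 exons in the transcript used) encodes an mRNA-binding protein of embryonic tissue. Its level was 10.9, 123, 126 and 275 CPM in tumors 1 to 4. It was 10.7, 11.8 and 14.8 CPM in the P7 cerebella and 65.6, 50.0 and 65.5 CPM in the SHH MB. Tumors 2 to 4 lay above all other libraries, whereas tumor 1 lay within the range of the P7 cerebella. The mean of the tumors was 134 ± 108 CPM (SD, n = 4), that of the P7 cerebella 12.5 ± 2.13 CPM (SD, n = 3) and that of the SHH MB 60.4 ± 9.01 CPM (SD, n = 3). Against P7 cerebella the log2 fold change was 3.43 ± 0.73 (SE, adjusted p = 0.0208), a 10.8-fold difference with 3 of 4 tumors above every P7 cerebellum. Without tumor 1 it was 3.82 (adjusted p = 6.56e-05), where 16.1% of all genes passed, and without tumor 3 it was 3.34 (adjusted p = 0.0114). The call was lost without tumor 4 (2.84, adjusted p = 0.0538) and without P7 cerebellum 1, 2 or 3 (adjusted p between 0.103 and 0.121). With limma on the deposited VST values it was also lost (adjusted p = 0.0579), as in an edgeR fit of only the 7 libraries compared (adjusted p = 0.098), whereas DESeq2 kept it (adjusted p = 1.21e-05, with 14.8% of all genes past the test). Against SHH MB the difference was 1.15 ± 0.66 (adjusted p = 0.361). Without tumor 1 this became 1.52 (adjusted p = 0.00782), in a fit where 9.77% of all genes passed.

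Igf2bp1 was also higher in each SHH MB than in any P7 cerebellum. The difference was 2.28 ± 0.72 on the log2 scale, or 4.85-fold, with an adjusted p of 0.365 in the fit of all 10 libraries. In this comparison the groups did not overlap for 2 of 7 members, Igf2bp1 and Igf2bp3, with SHH MB higher, as for 17.8% of all genes tested. In a fit of only these 6 libraries the adjusted p for Igf2bp1 was 3.29e-11, and 23.7% of all genes passed. Without tumor 1, which belongs to neither group but shares the fit, it was 0.00336, with a log2 difference of 2.30, and 3.17% of all genes passed. In the order of group means Igf2bp1 was lowest in P7 cerebella, then SHH MB, then MYC/SMARCA4 tumors. The last 2 do not differ beyond their spread with all tumors included.

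Igf2bp3 (chromosome 6, 49062144 to 49192447, minus strand) encodes the paralog that is widely used as a marker of fetal and tumor tissue. It reached 41.1, 19.1, 35.3 and 128 CPM in tumors 1 to 4, 27.1, 25.8 and 26.0 CPM in the P7 cerebella and 48.4, 48.1 and 59.7 CPM in the SHH MB. Tumor 4 lay above and tumor 2 below all other libraries. The log2 difference between tumors and P7 cerebella was 1.09 ± 0.50 (adjusted p = 0.194), and without tumor 4 it was 0.19. Against SHH MB it was 0.11 ± 0.49 (adjusted p = 0.928), and without tumor 4 the fitted value was -0.79 (adjusted p = 0.155). Each SHH MB lay above each P7 cerebellum, with a log2 difference of 0.99 ± 0.52 (adjusted p = 0.641). A fit of only those 6 libraries gave an adjusted p of 4.07e-06, and 23.7% of all genes passed.

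Igf2bp2 (chromosome 16, 21877759 to 21982499, minus strand), which unlike its paralogs stays active in many adult tissues, had the lowest level per kilobase of the family in SHH MB and in the tumors. It reached 3.47, 1.26, 5.60 and 8.66 CPM in tumors 1 to 4, on 7 to 71 counts, 6.64, 10.7 and 11.0 CPM in the P7 cerebella and 7.00, 7.19 and 4.40 CPM in the SHH MB. The groups overlapped. The log2 differences were -0.96 ± 0.50 for tumors against P7 cerebella (adjusted p = 0.241), -0.36 ± 0.51 against SHH MB (adjusted p = 0.737) and -0.60 ± 0.53 for SHH MB against P7 cerebella (adjusted p = 0.826).

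Hmga1 (chromosome 17, 27775449 to 27782648, plus strand) encodes the more widely used of the HMGA chromatin proteins. Its level was 18.6, 34.6, 36.4 and 68.8 CPM in tumors 1 to 4, 12.1, 12.7 and 14.0 CPM in the P7 cerebella and 17.4, 11.7 and 18.5 CPM in the SHH MB. All 4 tumors lay above every P7 cerebellum and every SHH MB, tumor 1 by a narrow margin over SHH MB 3. The tumors had a mean of 39.6 ± 21.1 CPM (SD, n = 4), the P7 cerebella 12.9 ± 0.985 CPM (SD, n = 3) and the SHH MB 15.9 ± 3.66 CPM (SD, n = 3). The log2 fold change against P7 cerebella was 1.62 ± 0.39 (adjusted p = 0.0312), a 3.08-fold difference. Against SHH MB it was 1.33 ± 0.38 (adjusted p = 0.0706). Of all genes, 10.3% lay above without overlap in the comparison with P7 cerebella and 7.83% in that with SHH MB. For Hmga1 without tumor 1, the values were 1.86 (adjusted p = 0.00128) and 1.55 (adjusted p = 0.00507), and without tumor 3 they were 1.52 (adjusted p = 0.0197) and 1.25 (adjusted p = 0.051). Without tumor 1, 16.1% and 9.77% of all genes passed, and without tumor 3, 34.6% and 23.4%. The call against P7 cerebella was lost in 8 of 10 fits that each left out 1 library, among them those without tumor 2 (adjusted p = 0.0517), without tumor 4 (1.19, adjusted p = 0.0959) and without any of the P7 cerebella or SHH MB, whereas the log2 fold changes stayed between 1.19 and 1.86. It was also lost with limma (adjusted p = 0.0567), with at least 10 counts required in every library (adjusted p = 0.0513) and in a fit of only the 7 libraries compared (adjusted p = 0.126), and DESeq2 kept it (adjusted p = 0.00154). In SHH MB against P7 cerebella the difference was 0.30 ± 0.40 (adjusted p = 0.898).

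Reads of Hmga1 can also match Hmga1b (chromosome 11, 120653620 to 120655245), a near copy with 1 exon, so that the split between them is uncertain. Hmga1b reached 3.47, 7.56, 15.4 and 9.76 CPM in tumors 1 to 4, 2.62 to 2.96 CPM in P7 cerebella and 2.00 to 4.98 CPM in SHH MB. Its log2 difference from P7 cerebella was 1.72 ± 0.50 (adjusted p = 0.0592). Summed over both genes, the tumors reached 22.1, 42.1, 51.8 and 78.6 CPM, the P7 cerebella 15.0 to 16.7 CPM and the SHH MB 13.7 to 22.4 CPM. In this sum tumor 1 fell within the range of the SHH MB, and all tumors remained above the P7 cerebella. Exons of Hmga1 also overlap those of Smim29 and Gm49774 on the opposite strand. Whether the counting used the strand is not given in the sources used here, and the same limit holds for Igf2bp1 (Gm29202), Igf2bp3 (Malsu1 and Gm67966), Lin28a (Gm13061) and Hmga2 (1700006J14Rik and Gm51785). Igf2bp1 also overlaps Mir3063 on its own strand, where counting by strand cannot separate them.

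Hmga2 (chromosome 10, 120197173 to 120313095, minus strand), the HMGA gene most restricted to the embryo, gave values in the other direction. It reached 0.248, 0.540, 1.26 and 1.59 CPM in tumors 1 to 4, on 1, 3, 9 and 13 counts. It was 3.68, 3.38 and 3.00 CPM in the P7 cerebella and 2.33, 3.30 and 3.84 CPM in the SHH MB, on 15 to 36 counts. All 4 tumors lay below every other library, and tumors 1 and 2 were at or under the floor of 3 counts. The log2 difference was -1.78 ± 0.54 against P7 cerebella (adjusted p = 0.069) and -1.70 ± 0.55 against SHH MB (adjusted p = 0.100), so that Hmga2 did not pass. Of all genes, 10.7% and 8.3% lay below without overlap in these comparisons. Without tumor 3 the adjusted p was 0.0164 and 0.0267, where 34.6% and 23.4% of all genes passed. DESeq2 gave adjusted p of 0.0165 and 0.0228. The pseudogene Hmga2-ps1 had 0 counts in all 10 libraries.

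Lin28b (chromosome 10, 45252646 to 45362557, minus strand), which blocks let-7 maturation, differed most between the tumors after Igf2bp1. It reached 22.3, 44.3, 10.8 and 239 CPM in tumors 1 to 4, on 77 to 1960 counts. The P7 cerebella had 16.1, 18.2 and 13.6 CPM and the SHH MB 14.0, 15.8 and 15.8 CPM. Tumor 4 lay 15.0-fold above the mean of the P7 cerebella and tumor 2 lay 2.77-fold above it, whereas tumor 3 was the lowest of all 10 libraries. The log2 difference was 2.31 ± 0.81 against P7 cerebella (adjusted p = 0.104) and 2.38 ± 0.82 against SHH MB (adjusted p = 0.122). Without tumor 4 these fell to 0.62 and 0.70. Without tumor 1 they were 2.63 and 2.68 and passed (adjusted p of 0.0313 and 0.0415), where 16.1% and 9.77% of all genes passed. They also passed without tumor 3 (2.54 and 2.63, adjusted p of 0.0172 and 0.0203), where 34.6% and 23.4% of all genes passed. With all libraries, DESeq2 gave adjusted p of 0.0166 and 0.0167, with 14.8% and 12% of all genes past the test. In limma Lin28b did not pass (adjusted p of 0.229 and 0.339). Between SHH MB and P7 cerebella the difference was -0.07 ± 0.82 (adjusted p = 0.991).

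Lin28a (chromosome 4, 133730641 to 133746173, minus strand), the family member of the early embryo, was low throughout. It reached 1.24, 0.540, 2.80 and 9.39 CPM in tumors 1 to 4, on 5, 3, 20 and 77 counts, 2.96 to 4.28 CPM in the P7 cerebella and 2.84 to 4.95 CPM in the SHH MB. Tumors 1 to 3 lay below and tumor 4 above all other libraries, tumor 3 by a narrow margin under SHH MB 3 (2.84 CPM), which also had 20 counts. The log2 difference was -0.01 ± 0.71 against P7 cerebella (adjusted p = 0.992) and -0.03 ± 0.71 against SHH MB (adjusted p = 0.985), and its sign depended on which library was left out. Without tumor 4 it was -1.23 and -1.24.

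**Figure D3:**
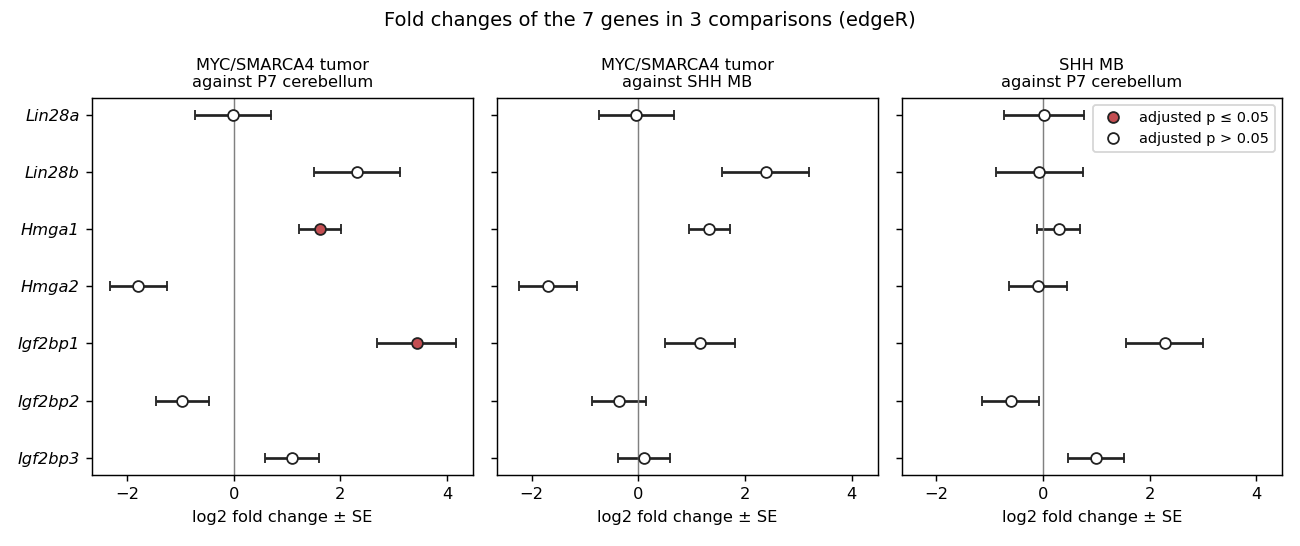
Log2 fold changes with SE (edgeR, all 10 libraries in 1 fit) of the 7 genes in the 3 comparisons, red where the adjusted p was at most 0.05. Hmga1 (1.62) and Igf2bp1 (3.43) passed in tumors against P7 cerebella, and no gene passed in the others.

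The 7 genes varied more among the tumors than within either of the other groups, as did most genes. The SD of log2 CPM was larger in the tumors than in both other groups for 7 of 7 members and for 84.4% of all genes tested, with a median over all genes of 0.81 in the tumors, 0.26 in P7 cerebella and 0.26 in SHH MB. The highest tumor exceeded the lowest by 3.70-fold for Hmga1 and by 25.2-fold for Igf2bp1, with the other 5 genes between these. Within P7 cerebella and within SHH MB the ratio of the highest to the lowest library was at most 1.74 for any of the 7. Tumor 4 was the highest tumor for 7 of 7 genes. The share of all genes tested that were highest in tumor 4 was not counted, so that this may be a trait of the library. The lowest was tumor 1 for Hmga1, Hmga2 and Igf2bp1, tumor 2 for Lin28a, Igf2bp2 and Igf2bp3, and tumor 3 for Lin28b. Hmga1, Hmga2 and Igf2bp1 increased in the order of tumors 1, 2, 3 and 4. Myc gave the same order except that tumor 3 lay above tumor 4. Lin28a, Lin28b, Igf2bp2 and Igf2bp3 gave other orders. A relation of the 7 genes to the level of Myc was not tested. At 79 days, tumor 4 also came from the youngest host, and host age cannot be told apart from the individual tumor.

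**Figure D4:**
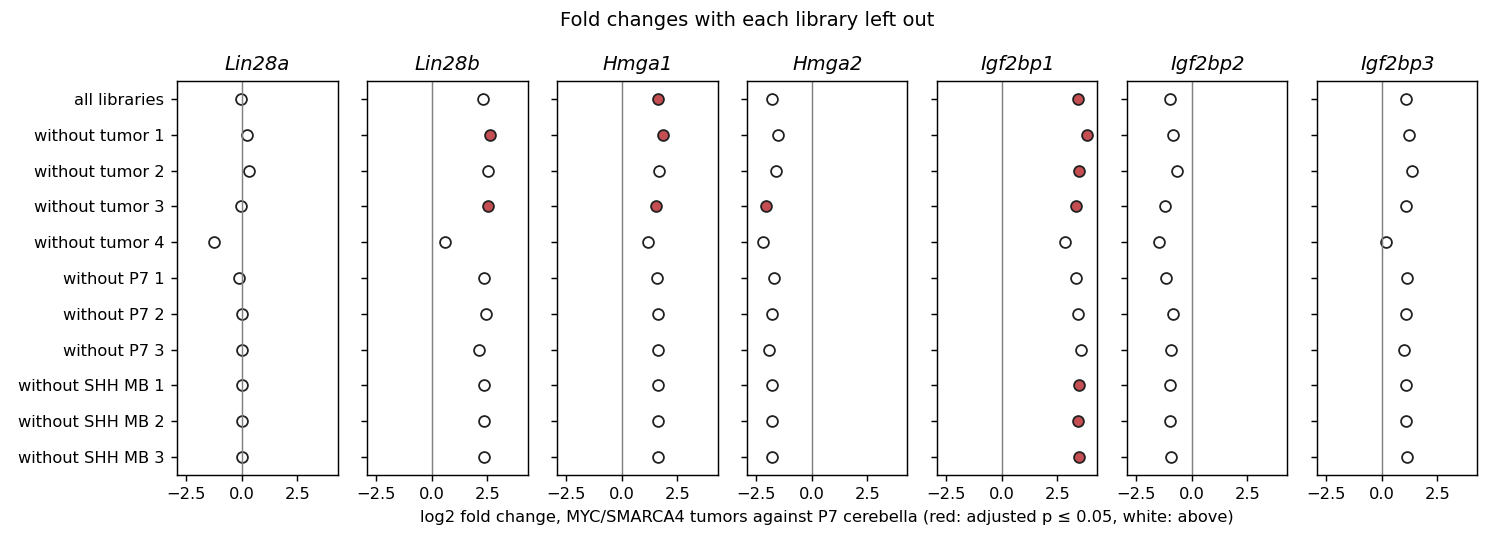
Log2 fold change of each of the 7 genes in MYC/SMARCA4 tumors against P7 cerebella with all libraries and with each of the 10 left out, red where the adjusted p was at most 0.05. Lin28b drops from 2.31 to 0.62 and Igf2bp3 from 1.09 to 0.19 without tumor 4, whereas Igf2bp1 stays between 2.84 and 3.82 and Hmga2 stays below 0.

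Per kilobase of the transcript used, levels can be compared between genes. In P7 cerebella the order was Hmga1 (7.34 CPM per kb), Igf2bp3 (6.03), Lin28b (2.89), Igf2bp2 (2.17), Igf2bp1 (1.46), Lin28a (1.04) and Hmga2 (0.739), all in CPM per kb. Lin28b and Igf2bp2 overlapped between libraries, as did Igf2bp2 and Igf2bp1, and the other neighbours did not. In SHH MB Igf2bp3 came first with 11.9 ± 1.51 CPM per kb (SD, n = 3), followed by Hmga1 with 9.02 ± 2.08 and Igf2bp1 with 7.08 ± 1.06 CPM per kb, of which the last 2 overlapped. In the tumors Hmga1 (mean 22.5 CPM per kb, range 10.6 to 39.1), Igf2bp1 (15.7 ± 12.7 CPM per kb, SD, n = 4), Lin28b (14.3 ± 19.4) and Igf2bp3 (12.8 ± 11.2) had higher means than Igf2bp2 (1.09 ± 0.725), Lin28a (0.990 ± 1.15) and Hmga2 (0.200 ± 0.137 CPM per kb). The first 4 overlapped with each other, as did the last 3. The lowest values of Igf2bp1 (1.28 CPM per kb, tumor 1) and Lin28b (1.95, tumor 3) lay below the highest of Igf2bp2 (1.99) and Lin28a (2.66), both in tumor 4. The upper and lower genes thus overlapped between tumors. Within each tumor, however, each of the first 4 genes lay above each of the last 3. FFPE RNA is fragmented, so that reads need not cover a transcript evenly.

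The low level of Igf2bp1 in tumor 1 came with other differences of that library. Tumor 1, with 10.9 CPM of Igf2bp1, also had the lowest proliferation sum of all libraries, the highest sums of mature granule neuron and Purkinje cell markers (8370 and 14300 CPM) and the highest sum of 10 myelinating oligodendrocyte markers (4108 CPM, against 131 to 1185 CPM in the other libraries). No marker of these lists was at 0 in any group. Of the 10 mature granule neuron markers, 3 were higher in the tumors than in P7 cerebella and 0 lower, and 6 were higher than in SHH MB. The list median was 1.94 and 3.37 on the log2 scale, against -0.05 and 0.01 over all genes tested. The summed level of these markers was above every P7 cerebellum in tumors 1 and 2 and below every P7 cerebellum in tumors 3 and 4. Without tumor 1, 3 of the 10 were higher and 1 lower than in P7 cerebella, with a median of 0.77, and 6 were higher and 1 lower than in SHH MB, with a median of 2.36. Of 20 proliferation genes edgeR passed 0 in all 3 comparisons, with 3, 0 and 4 below an unadjusted p of 0.05 in the order of the comparisons above (25.2%, 19.8% and 8.8% of all genes), and all 20 were fitted higher in tumors and in SHH MB than in P7 cerebella, as were 48.1% and 43.8% of all genes. Without tumor 1, 19 of the 20 rose in tumors against P7 cerebella and 14 in SHH MB against P7 cerebella, where 16.1% and 3.17% of all genes passed. In bulk tissue, fewer cells of a type and less RNA per cell cannot be told apart. The part of these cells in the levels of the 7 genes was not tested. In tumors 2 to 4 the proliferation sum lay between 2718 and 3036 CPM while Lin28b ranged from 10.8 to 239 CPM and Igf2bp3 from 19.1 to 128 CPM. The 10 genes listed as GCP markers summed to 697 to 1552 CPM in the tumors, with the highest tumor sum in tumor 1. They summed to 1877 to 1988 CPM in P7 cerebella and 2747 to 3187 CPM in SHH MB. In the tumors against P7 cerebella 4 of the 10 passed as lower and 0 as higher, and 2 were fitted higher.

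**Figure D5:**
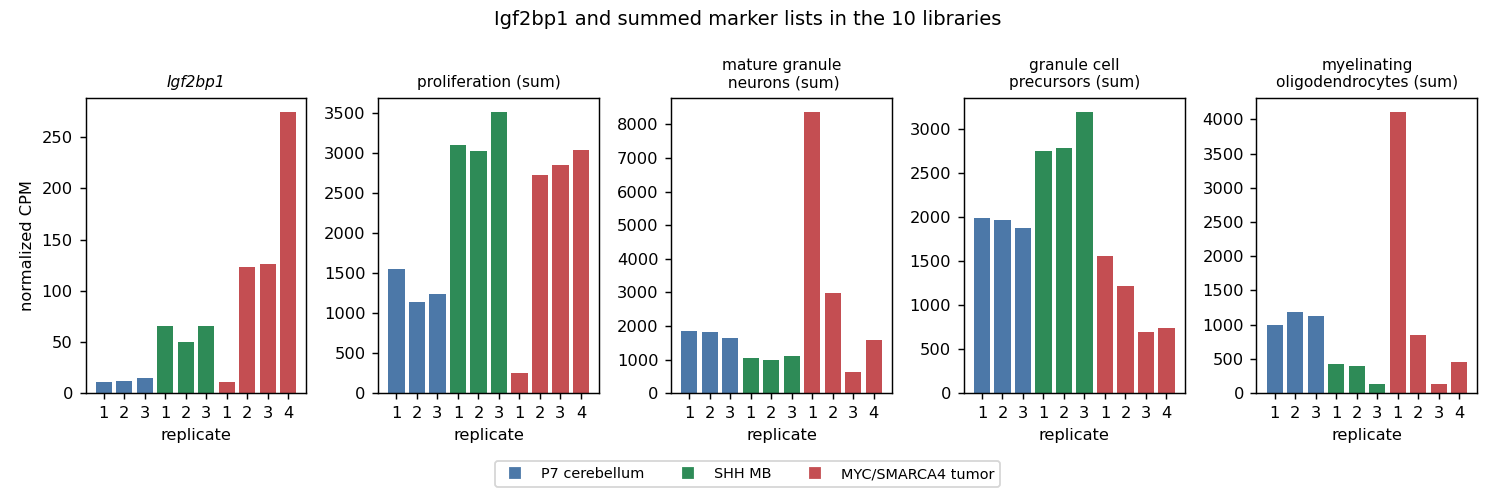
Igf2bp1 and the summed levels of 4 gene lists in normalized CPM in each library (bars, with the replicate number below). Tumor 1 has 10.9 CPM of Igf2bp1, the lowest proliferation sum (247 CPM) and the highest sum of mature granule neuron markers (8370 CPM).

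The genes around the 7 in the same pathway were described by counts. Of 22 genes for let-7 processing and decay, 1 rose in the tumors against P7 cerebella, Ran, which exports RNA precursors together with exportin 5 (log2 fold change 1.29, adjusted p = 0.0247), and 0 fell. In the other comparisons edgeR passed 0 of the 22, with 2 and 3 below an unadjusted p of 0.05 against SHH MB and between SHH MB and P7 cerebella. The list median in the tumors against P7 cerebella was 0.50. The 12 let-7 hairpin genes were hardly counted, with at most 29 reads in a library and 6 of them at 0 in all 10. Of the 5 tested genes that host or contain let-7 family members, Mir100hg was lower in the tumors than in SHH MB (log2 fold change -2.24, adjusted p = 0.0125) and none passed against P7 cerebella. Mir100hg ranged from 6.44 to 38.1 CPM in the tumors, from 35.1 to 46.2 CPM in P7 cerebella and from 85.3 to 127 CPM in SHH MB. Of 30 other known let-7 targets, 2 rose against P7 cerebella, the cell cycle genes Cdc25a (1.28) and Cdc34 (1.19), and 1 fell, Mycn (-3.74), with a list median of 0.20. Against SHH MB 0 of the 30 were higher and 4 lower, with the largest decreases in Mycn (-5.01) and Ccnd1 (-2.87), and in SHH MB against P7 cerebella only Ccnd1 passed (2.97).

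Of 18 partners of the IGF2BP proteins in RNA granules, 2 rose in the tumors against P7 cerebella. These were the nucleolar proteins Ncl (2.23, adjusted p = 0.00633) and Npm1 (2.48, adjusted p = 0.0136), and 17 of the 18 were fitted higher, as were 48.1% of all genes, with a median of 0.83. Without tumor 1, and likewise without tumor 3, 10 of the 18 rose. Over all genes, 3323 of 29877 rose without tumor 1 and 3381 of 28724 without tumor 3. Against SHH MB edgeR passed 0 of the 18, with 4 below an unadjusted p of 0.05. Among 16 mRNAs known to be bound by IGF2BP proteins, the imprinted RNA H19 rose against P7 cerebella (4.60, adjusted p = 0.0291), 0 fell, and Cd44 was lower than in SHH MB (-1.66). Of 17 writers, erasers and readers of m6A, the mRNA mark that IGF2BP proteins read, Ythdf1 (1.03) and Rbm15 (1.09) rose against P7 cerebella. Of 9 tested other high mobility group genes, Hmgn5 rose against P7 cerebella (1.90, adjusted p = 0.0208) and Hmgb3 was lower than in SHH MB (-1.27). Of 19 other fetal and imprinted genes, Peg10 (3.28) and H19 rose and Cdkn1c fell (-1.94) against P7 cerebella, while Peg10 was higher (2.95) and Grb10 lower (-1.91) than in SHH MB. The median of this list against P7 cerebella moved from 0.79 to 0.04 without tumor 1. Without tumor 1, against P7 cerebella, 8 of the 22 let-7 processing genes, 8 of the 30 let-7 targets, 5 of the 16 bound mRNAs and 8 of the 17 m6A genes rose. Among processing genes, targets and bound mRNAs 1 gene each fell, and 0 of the m6A genes did. Over all genes in this fit, 3323 of 29877 rose and 1493 fell. Without tumor 2 the counts of genes that rose in these lists were 0, 0, 1 and 0, and 528 of 29869 over all genes. The lists were chosen with earlier results of these data known.

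E-box letters, which MYC can bind, were searched in the promoters (250 bases before to 50 after the start, RefSeq on GRCm38.p6). Of the 7 genes, 6 had an entry in the table used, and Igf2bp1 had none. CACGTG, which reads the same on both strands, was found in Igf2bp3, starting 23 bases before and 6 after the annotated start, and in Lin28b, starting 49 bases before it. It was absent from the windows of Lin28a, Hmga1, Hmga2 and Igf2bp2. Over all 32851 promoters of this length, 7.15% held it, and 0.594% held it at least 2 times. Both windows are shown because they hold CACGTG, which the capitals mark. Genes with and without these letters were all highest in tumor 4 among the tumors, whereas Myc was highest in tumor 3. A relation between these letters and the levels was not tested.
Igf2bp3 promoter, minus strand, chr6:49214905-49215204: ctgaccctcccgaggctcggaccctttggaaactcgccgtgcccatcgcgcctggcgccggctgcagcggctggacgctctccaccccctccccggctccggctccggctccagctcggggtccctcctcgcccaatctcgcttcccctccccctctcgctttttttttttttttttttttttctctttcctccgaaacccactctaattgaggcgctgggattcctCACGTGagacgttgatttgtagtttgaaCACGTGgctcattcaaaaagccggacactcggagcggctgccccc
Lin28b promoter, minus strand, chr10:45470152-45470451: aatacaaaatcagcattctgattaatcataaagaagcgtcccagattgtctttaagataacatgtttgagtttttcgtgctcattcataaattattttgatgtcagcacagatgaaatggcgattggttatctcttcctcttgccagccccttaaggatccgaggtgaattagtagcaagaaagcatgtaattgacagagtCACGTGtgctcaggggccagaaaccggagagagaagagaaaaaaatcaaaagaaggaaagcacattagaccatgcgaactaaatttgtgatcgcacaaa
Binding of MYC was not measured.

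The genes whose log2 CPM over the 10 libraries was most like that of each of the 7 were listed as a description. The 10 libraries form 3 groups, and 16784 or 16785 genes with a mean of at least 2 log2 CPM were compared. For Igf2bp1 these were Khsrp (Pearson's r = 0.99), which encodes an RNA-binding protein, Gatad2a and Metap2. For Hmga1 they were Ruvbl1 (r = 0.99), Polr2m and Zmynd19, and for Lin28b they were Prag1 (r = 0.98), Ncoa3 and Aup1. Hmga2 was most like Zfp558 (r = 0.98), Gm39314 and Ptpro, Igf2bp2 like Prx (r = 0.96), Gm40578 and Arhgap45, and Lin28a like Edaradd (r = 0.96), Adgrv1 and Gm11802. For Igf2bp3 the highest value, with Gm12227, was 0.89, followed by Fgd3 and Dcbld1. Lin28a and Hmga2 had a mean below 2 log2 CPM and were not among the genes compared, so that they could not be listed for another member. No other member was among the 3 genes most like another member.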

How the data were processed

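The 10 libraries (4 from MYC/SMARCA4 tumors, 3 from SHH MB, 3 from P7 cerebella) were grouped by the sample labels. Per the submitters' processing notes and methods, the authors removed ribosomal RNA, used the CORALL kit for the libraries, trimmed with Trimmomatic 0.38.1, aligned reads to GRCm39 with STAR 2.7.8a and counted them per gene with featureCounts 2.0.1. The deposited raw counts per gene are not normalized. A further table of the authors holds values on a log2 scale (VST of DESeq2) for 46123 of 50559 genes, and these were used only in an alternative. No deposited column was without a label (0 columns). The strand setting and the annotation release of the counting are not given in the sources used here.

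The test was the quasi-likelihood one of edgeR 4.0.16 (R 4.3.3) with TMM factors (0.62 to 1.28), the filter on low counts by group, all 10 libraries in 1 fit and a mean per group, which gave 29952 genes, a common dispersion of 0.178 and Benjamini-Hochberg adjustment over these genes. The study used limma, which is an alternative here because count data need a count model. A gene passed at an adjusted p of at most 0.05. Levels are normalized CPM, or log2 CPM with a prior count of 2. The fit was run on simulated data in which all libraries had the same dispersion. In the real data the tumors spread more than the other groups, so that the simulation cannot show how the fit handles unequal spread. Alternatives were DESeq2 1.42.0, limma 3.58.1 on the deposited VST values, RLE factors, no filter, at least 10 counts in every library, robust estimation, a fit of only the 2 groups in question, a block for the replicate number, a prior count of 0.5 for the levels and each library left out in turn.

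Replicates of a group differed by more than sampling noise (chi-square per degree of freedom of at least 3.76, against about 1 for sampling noise alone), so that none was counted as a repeat of another. Named genes are the 7 members, Myc and Smarca4 as targeted genes, the 3 genes most correlated with each member, the 2 largest and 2 smallest fold changes that passed in each list, and near copies of members. Marker lists served as a check for other cell types. The members and the lists were chosen with earlier results of these data known. Positions come from GENCODE vM39 on GRCm39, and microRNAs and promoters from RefSeq on GRCm38.p6, whose coordinates were not mixed. Sequences were read with Python 3.11.15.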

Additional observations from a re-analysis of the deposited data

How the results depend on the processing

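Of the 2 members that passed in tumors against P7 cerebella, both also passed with RLE factors, without a filter and with robust estimation. The count was 4 with DESeq2 (3 higher, 1 lower), 0 with limma, 1 with at least 10 counts in every library, where 4 members were tested, and 0 in a fit of only the 2 groups. In these fits 14.8%, 2.43%, 11.7% and 0.813% of all genes passed. Leaving out each library gave 0 to 4, with 0 without tumor 4 or any P7 cerebellum, 1 without tumor 2 or any SHH MB, 3 without tumor 1 and 4 without tumor 3. The share of all genes that passed also moved. It was 3.35% without tumor 4, 0.469% to 0.697% without a P7 cerebellum, 3.36% without tumor 2 and 2.36% to 2.55% without an SHH MB. Without tumor 1 it was 16.1% and without tumor 3 it was 34.6%. Against SHH MB the count was 0, and it was 3 with DESeq2, 0 with limma and 0 to 3 with a library left out, with 3 without tumor 1 and 2 without tumor 3. There 12% of all genes passed with DESeq2, 1.9% with limma, 9.77% without tumor 1 and 23.4% without tumor 3. For SHH MB against P7 cerebella the count was 0, and it was 1 with DESeq2, 2 with only the 2 groups and 0 to 1 with a library left out, with 1 without tumor 1. Here 2.55% of all genes passed with DESeq2, 23.7% with only the 2 groups and 3.17% without tumor 1. The cause of these moves was not tested.

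Same-numbered samples did not deviate together (correlations of -0.20 to 0.18 over 5000 genes), so that they share only a number. With the replicate block, in which tumor 4 has no partner, 0 members passed in tumors against P7 cerebella, 0 against SHH MB and 0 between SHH MB and P7 cerebella.

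Some fitted differences close to 0 changed sign. Lin28a in tumors against P7 cerebella was 0.00498 with DESeq2, 0.000322 with RLE factors and 0.0676 without a filter, and it lay between -1.23 and 0.35 with a library left out, above 0 in 7 of these fits. With a library left out Lin28a lay between -1.24 and 0.32 against SHH MB and between -0.24 and 0.21 in SHH MB against P7 cerebella. Igf2bp3 against SHH MB was -0.22 with limma, -0.11 with at least 10 counts and -0.75 with the replicate block, and between -0.79 and 0.40 with a library left out. In SHH MB against P7 cerebella such fits gave -0.17 to 0.0632 for Lin28b, -0.22 to 0.12 for Hmga2 and -0.55, without SHH MB 2, to 1.00 for the median of the erythroid markers. Of 368 recomputed fold changes of the members, 310 kept their direction and their side of the threshold, and all 21 levels did with a prior count of 0.5.

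Depth limits Hmga2 and Lin28a, whose tumor levels rest on as few as 1 and 3 counts, and FFPE punches of unknown tumor cell share limit all levels.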
